A study of Mus musculus with 16 samples.

Results

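Kinesins and cytoplasmic dynein are the motor proteins that walk along microtubules. The genes described here are the 53 mouse genes that encode kinesin heavy chains with a numbered Kif symbol (36 genes), kinesin light chains (Klc, 4 genes), subunits of cytoplasmic dynein 1 and dynein 2 (Dync, 7 genes) and subunits of dynactin, the cofactor of dynein (Dctn, 6 genes). They were chosen by name among 55414 gene rows, as protein-coding genes whose symbol begins with Kif, Klc, Dync or Dctn followed by a digit, and whose deposited value reached 10 in no fewer than 2 libraries of the P16 control table. Of the 56 genes with such a name, 3 were left out by that minimum. Kif12 stood at 0 in both P16 controls, and Kif28 stood at 2.08 and 1.89. Kif2b measured 8.31 and 18.9 in controls, with 12.6 and 12.4 in the conditional knockout. The lowest gene kept was Kif26b, at 39.5 and 29.3 in the controls. Kif1bp was kept by its symbol, although it encodes a protein that binds kinesins and is not itself a motor.

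RNA from whole mouse testes was sequenced at postnatal day 14 (P14) and 16 (P16), in 16 libraries. The groups were control (2 libraries a stage), Cre control (P14, 2 libraries, and P16, 4 libraries) and Ythdc2 conditional knockout (cKO, 3 libraries a stage). All 3 genotypes had received tamoxifen (10 mg per ml) on P12 and P13, which activates an inducible Cre recombinase, so the controls share that treatment. The labels give neither the Cre driver nor the alleles of the control types, and do not say whether each library is from 1 animal, so p-values measure the spread between libraries only. Ythdc2 encodes an RNA helicase that reads m6A-methylated RNA and is needed for meiosis in male germ cells. Ribosomal RNA was removed with the Ribo-Zero kit ("the first kit") in the controls and in cKO libraries 1 and 2 of each stage, and with a NEBNext kit ("the second kit") in the Cre controls and in cKO library 3 of each stage. No sequencing run held libraries of both kits. Values are the deposited normalized read counts, which were scaled within each table of 1 stage and 1 control type. Reads on genes ranged from 14494867 to 27531529 a library. Ythdc2 itself stood at 2666 and 2609 in P16 controls against 501.7 and 540.6 in cKO, and every cKO library was below every control in all 4 tables. Markers of spermatogonia, spermatocytes and Sertoli cells were present in all libraries, while 8 of 10 spermatid markers stayed under 1 CPM (the reads of a gene scaled to the depth of its library) in every library.

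Kinesins mostly move cargo towards the plus ends of microtubules, and a subset builds the spindle, moves chromosomes or completes cytokinesis. Dynein 1 with dynactin carries cargo to minus ends and focuses spindle poles, whereas dynein 2 returns cargo from the tips of cilia and flagella. In the testis these motors serve germ cell divisions, the cytoplasmic bridges between germ cells, the movement of meiotic chromosomes, the cargo traffic of Sertoli cells, and later the sperm tail. In P16 controls the level per kilobase of exon was highest for Dync1h1, the motor subunit of dynein 1, at 1220 normalized counts per kb. It was followed by the dynactin subunit Dctn3 at 1029, the kinesin-1 heavy chain Kif5b at 982 and the cytokinesis kinesin Kif20a at 973. Kif26b was the lowest at 2.34 per kb, below Kif19a at 17.8 and Kif17 at 28.4.

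Against first-kit controls at P16, normalized counts in cKO were lower for 8 of 13 mitotic and spindle kinesins, every kinesin light chain and several ciliary kinesins. They were higher for a few cargo kinesins, while nearly all dynein and dynactin subunits did not pass the test. The comparison asked which transcripts differ once Ythdc2 has been lost, using the first-kit libraries, 2 a group. Of the 53 genes, 20 were lower and 7 were higher in cKO at an adjusted p under 0.05 (limma, two-sided, Benjamini-Hochberg over all genes, termed "called" below). Among all 17986 genes tested, 19.9% were called lower, 18.6% higher and 38.6% either way. The median log2 change of the 53 genes was -0.09, against 0.00 over all genes. Without a mean-variance trend in limma the counts were 7 lower and 1 higher, the ones that stayed being Klc3, Kif5a, Kif23, Kif17, Kif7, Kif18a, Kif27 and, higher, Kif13a. Without control library 2 the count of higher genes was 4. In whole testes, fewer cells of a type and less RNA per cell cannot be told apart.

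**Figure D1:**
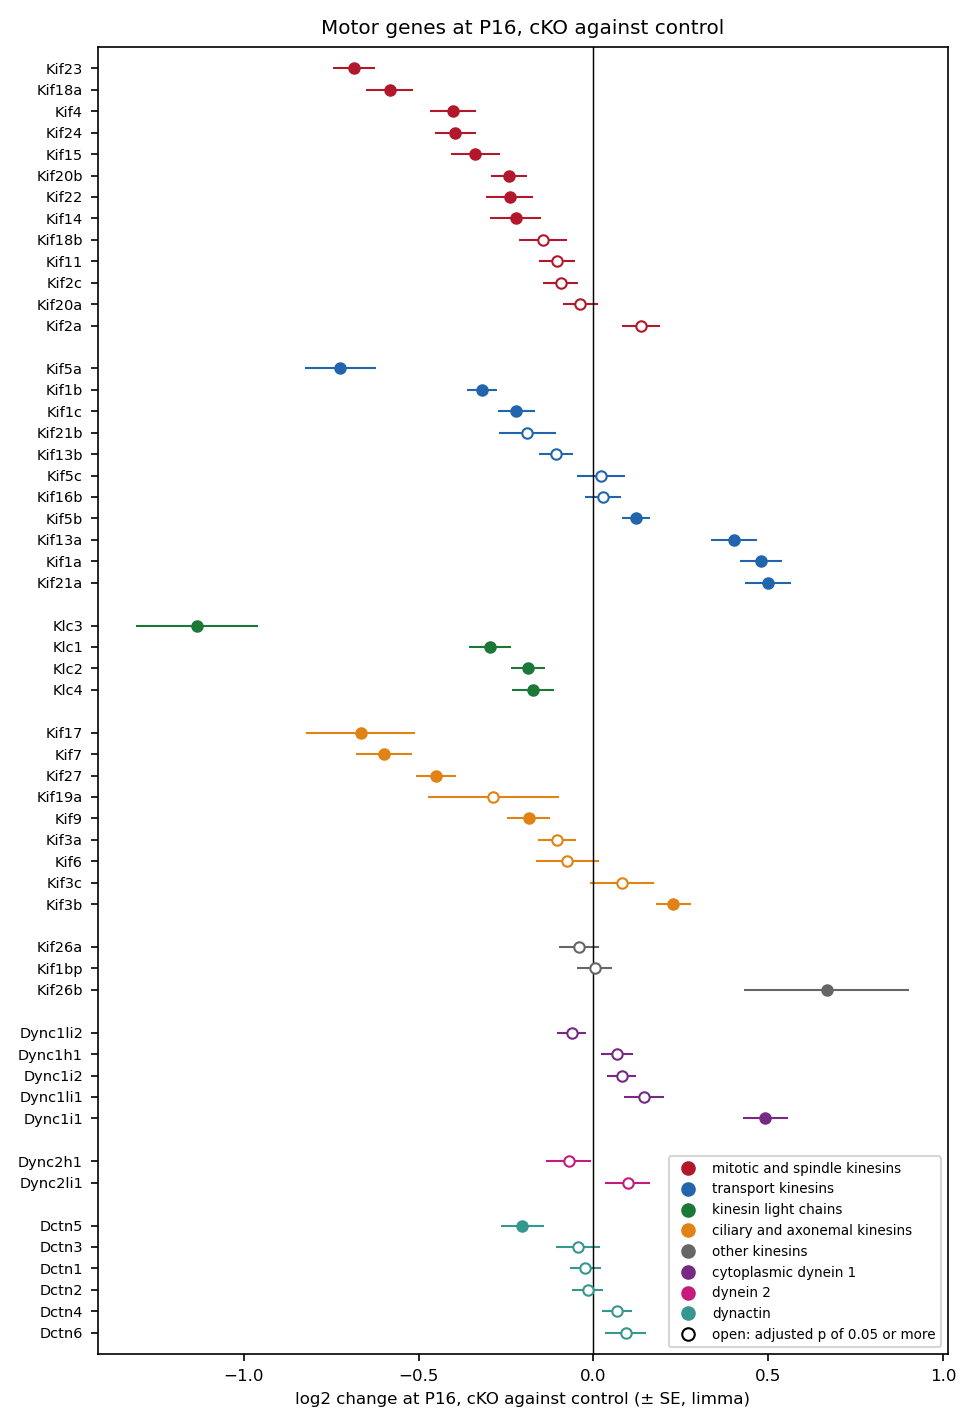
Log2 change of each of the 53 motor genes at P16, cKO against control, with its standard error from limma (2 libraries a group, first kit). Genes are grouped by role and coloured accordingly, and filled points have an adjusted p under 0.05. All 4 kinesin light chains and 8 of 13 mitotic kinesins lie to the left with filled points, whereas most dynein and dynactin subunits lie near 0.

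Among the 13 mitotic and spindle kinesins, 8 were lower, none was higher and the median log2 change was -0.24. Kif23, a motor of the central spindle that also sits in the bridges between germ cells, stood at 2339 and 2529 in controls and at 1439 and 1592 in cKO. The cKO mean was 62.3% of the control mean, the log2 change was -0.68 (SE 0.061) and the adjusted p was 4.28e-06. Kif18a, which shortens microtubule ends to align chromosomes and is needed for male fertility, stood at 1369 and 1363 against 856 and 970.5, a log2 change of -0.58 (SE 0.067, adjusted p 3.16e-05). Kif4, a chromokinesin, stood at 1247 and 1400 against 975 and 1025 (log2 change -0.40, adjusted p 4.74e-04). In each of these genes both cKO libraries lay below both controls, as they also did in Kif11 and Kif2c, which were not called. With 2 libraries a group such separation often arises without any change, and its share over all genes was not counted. A processed pseudogene copy is annotated for Kif4 and for Kif22, so the reads of these genes may be shared with it.

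Smaller falls were measured for Kif24, a centriolar kinesin that restrains cilium assembly (log2 change -0.39), for Kif15, which backs up Kif11 in the bipolar spindle (-0.34), and for Kif20b and Kif14, which act in cytokinesis (-0.24 and -0.22). The chromokinesin Kif22 was also called, at 764 and 797 in controls and 648 and 673 in cKO (-0.24, adjusted p 0.0132). DESeq2 called neither Kif14 nor Kif22, and Kif14 also lost its call with quantile scaling and with no filter. Kif11, the main motor that separates spindle poles, did not pass the test, with 2987 and 3271 in controls and 2869 and 2946 in cKO (-0.10, SE 0.052, adjusted p 0.130). Kif20a, the other abundant cytokinesis kinesin, had overlapping groups at 4174 and 4271 against 3934 and 4303 (-0.04, SE 0.050, adjusted p 0.590). The microtubule depolymerase Kif2c was at -0.09 and Kif18b at -0.14, both not called, and Kif2a was the one gene of the group with a positive change (0.14, adjusted p 0.0618). Of the 13 genes, then, Kif23 and Kif18a stood furthest below control, and Kif20a and Kif2c stood near it.

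RefSeq promoters (GRCm38.p6, 250 bases before the start to 50 after) were found for 41 of the 53 genes. They were searched on both strands for TTTGAA, the core of the cell cycle homology region found in promoters of G2 and M phase genes, for CCAAT, and for GTTGCC, a half-site of the RFX factors of ciliary genes. TTTGAA occurred in 9 of 12 mitotic kinesins, in 4 of the 29 other genes and in 20.2% of 27025 promoters. It was present in called genes such as Kif23 and in genes not called such as Kif11, Kif18b and Kif2c, and Kif18a did not hold it. CCAAT occurred in 7 of the 12, against 41.1% of all promoters, and a window can hold several of the motifs. The stretch from 100 bases before to 30 after the start is given for 4 of the called mitotic kinesins, with TTTGAA or its reverse complement in capitals, because the shared letters lie near the start in each.
Kif23 (chr9:61946770-61946899, minus strand): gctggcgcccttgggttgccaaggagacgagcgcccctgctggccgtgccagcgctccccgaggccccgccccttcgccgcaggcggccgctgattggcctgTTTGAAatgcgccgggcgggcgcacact
Kif4 (chrX:100625965-100626094, plus strand): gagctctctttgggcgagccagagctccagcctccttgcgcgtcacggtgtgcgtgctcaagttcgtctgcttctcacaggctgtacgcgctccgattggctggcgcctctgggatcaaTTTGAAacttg
Kif20b (chr19:34922258-34922387, plus strand): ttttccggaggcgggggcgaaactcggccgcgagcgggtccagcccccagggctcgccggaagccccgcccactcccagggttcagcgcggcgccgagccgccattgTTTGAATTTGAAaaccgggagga
Kif15 (chr9:122950981-122951110, plus strand): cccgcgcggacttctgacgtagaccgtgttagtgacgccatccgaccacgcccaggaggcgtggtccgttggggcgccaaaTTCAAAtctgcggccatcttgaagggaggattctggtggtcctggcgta
Kif20b holds adjacent copies of the motif and Kif15 holds it on the other strand. A match describes these letters only and says nothing of whether a factor binds there.

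Markers of spermatogonia and of leptotene and zygotene spermatocytes were also lower in cKO at P16. The summed level of 10 spermatogonial markers was 804 and 810.1 CPM in the P16 controls and 603 and 594 in cKO, with 9 of 10 called lower and none at 0 in all libraries. The sum of 10 leptotene and zygotene markers was 2408 and 2272 CPM in controls and 1792 and 1926 in cKO, again with 9 of 10 called lower. At P14 the spermatogonial sums were nearer to each other, at 919 and 900.3 in controls and 876 to 894 in cKO. The part of these cells in the changes of the kinesins was not tested.

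Kinesin light chains link the kinesin-1 heavy chains to cargo, and all 4 were called lower at P16. Klc3, which in spermatids binds the outer dense fibres and mitochondria of the tail, had the largest fall of the 53 genes. It stood at 143.4 and 142.7 in controls and at 74.7 and 55.9 in cKO, or 45.7% of the control mean, a log2 change of -1.13 (SE 0.17, adjusted p 2.70e-04). Klc1 stood at 1141 and 1193 against 933 and 968 (-0.30, SE 0.060, adjusted p 0.00183). Klc2, the most abundant of them per kilobase, stood at 3544 and 3336 against 3097 and 2948 (-0.19, adjusted p 0.00930), and Klc4 changed by -0.17 (adjusted p 0.0354). Both cKO libraries lay below both controls for each of the 4, as they also did for genes not called, such as Kif3a, so this adds nothing to the test. Klc4 lost its call in several alternatives, DESeq2 among them. Klc3 overlaps Ercc2 and Klc1 overlaps Xrcc3 on the opposite strand, and these partners changed by -0.14 and -0.53 on the log2 scale, both called. Whether reads were counted by strand is not given in the sources used here, so reads of such pairs cannot be told apart.

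The 11 transport kinesins split, with 4 called higher and 3 lower. Of the kinesin-1 heavy chains, Kif5a, best known from neurons, stood at 364 and 389 in controls and at 214 and 241 in cKO, or 60.5% of the control mean (log2 change -0.72, SE 0.10, adjusted p 1.39e-04). The ubiquitous Kif5b went the other way, from 7861 and 7815 to 8653 and 8412, a change of 0.12 (SE 0.040, adjusted p 0.0274). That call was lost with no filter, without the trend, and in the fit over the 8 first-kit libraries. Kif5c did not pass the test (0.02). The kinesin-3 genes were divided in the same manner. Kif1a, a carrier of vesicle precursors, stood at 1505 and 1533 in controls and 2247 and 1995 in cKO (0.48, SE 0.060, adjusted p 6.39e-05), whereas Kif1b and Kif1c changed by -0.32 and -0.22 and were called lower. Kif13a, an endosomal carrier, stood at 625 and 647 against 847 and 834 (0.40, adjusted p 4.36e-04). Kif21a, which restrains microtubule growth at the cell cortex, stood at 2387 and 2377 against 3658 and 3101 (0.50, SE 0.065, adjusted p 8.44e-05). In all of these called genes the groups did not overlap, which also held for Kif13b and Kif21b, not called, so this adds nothing to the test. The pairs of paralogs Kif5a and Kif5b, and Kif1a and Kif1b, changed in opposite directions, although the call of Kif5b depended on the settings. Of 10 Sertoli cell markers, 6 were called higher at P16, with sums of 4176 and 4380 CPM in controls and 4946 to 5438 in cKO. The sum of 5 macrophage markers was 55.3 to 58.4 CPM in controls and 85.0 to 89.5 in cKO, with all 5 called higher. Of 10 pachytene markers, 5 were called higher and 1 lower, with sums of 1936 to 1954 CPM in controls and 2065 to 2287 in cKO. Of the 5 Leydig cell markers tested, 2 were called higher. Their part in the higher values was not tested.

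**Figure D2:**
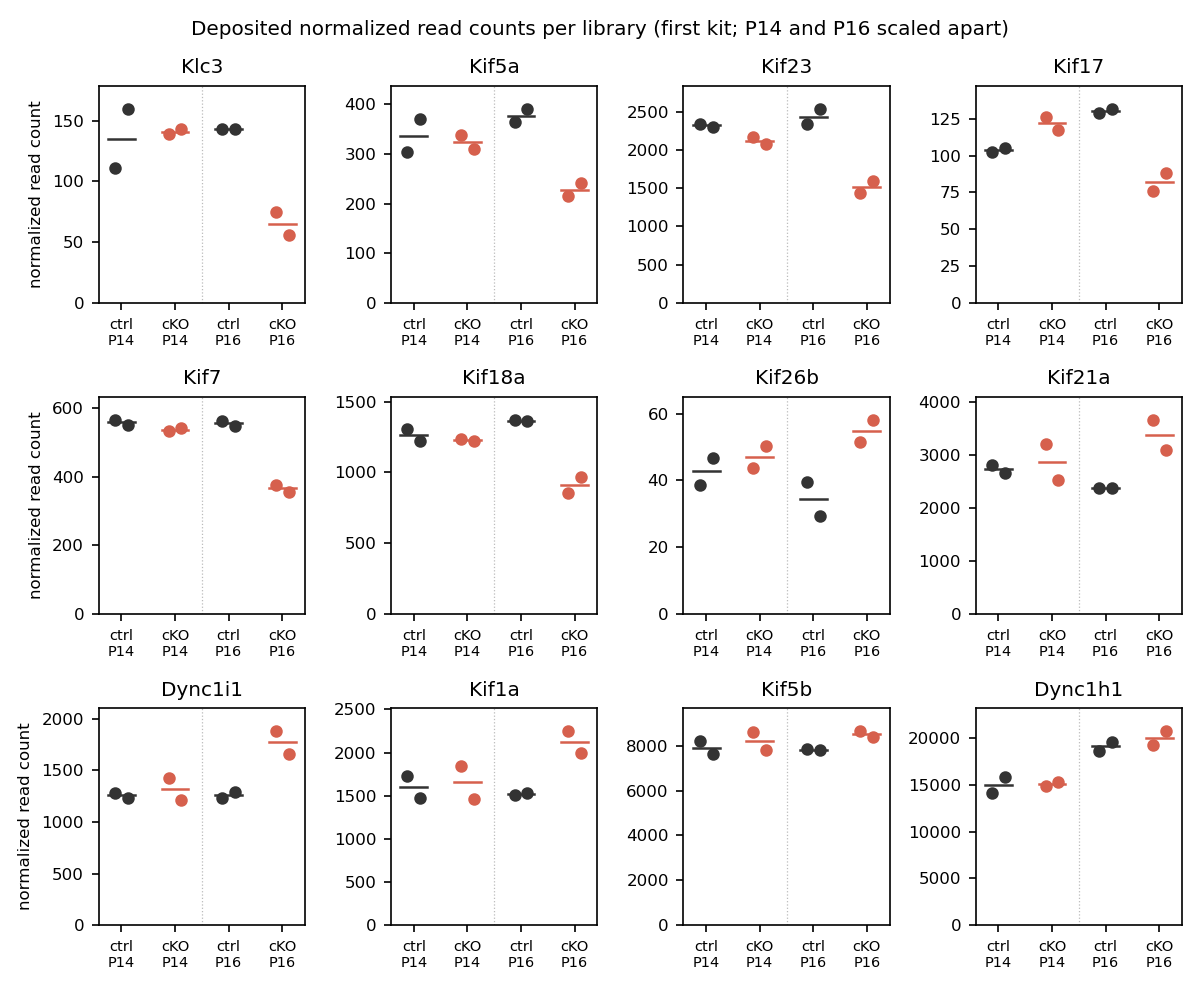
Deposited normalized read counts of 12 motor genes in each first-kit library (points) with group means (lines), for control (dark) and cKO (red) at P14 and P16. The stages were scaled separately. The 6 genes from Klc3 to Kif18a lie lower in both cKO libraries at P16, while Kif21a, Dync1i1 and Kif1a are higher there.

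Among the 9 ciliary and axonemal kinesins, 4 were lower and 1 was higher. Kif17, a kinesin-2 motor of cilia that in spermatids carries a transcriptional coactivator, stood at 129 and 131 in controls and 75.7 and 88.0 in cKO (log2 change -0.67, SE 0.15, adjusted p 0.00446). Kif7, which sets Hedgehog signalling at the tip of the cilium, stood at 564 and 547 against 377 and 356 (-0.60, SE 0.080, adjusted p 1.01e-04), and its paralog Kif27 stood at 1217 and 1198 against 890 and 877 (-0.45, SE 0.058, adjusted p 7.64e-05). Kif9, a motor of the sperm tail, fell by 0.19 on the log2 scale (adjusted p 0.0320), a call that DESeq2 did not make. Kif3b, a heavy chain of the kinesin-2 of intraflagellar transport, was higher, at 3133 and 2904 in controls and 3609 and 3461 in cKO (0.23, adjusted p 0.00313). Its partner Kif3a was not called at -0.10 (SE 0.054), and Kif6 was not called at -0.08 (SE 0.090). Kif7 overlaps Ticrr on the other strand, and Ticrr was called lower by a larger amount (-0.85), so the value of Kif7 is uncertain. Kif17 shares a strand with Sh2d5, which was not called at -0.28.

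GTTGCC occurred in the promoters of 4 of 8 ciliary kinesins, in 34.1% of the 41 promoters found and in 14.1% of all 27025. A called pair is given with the motif in capitals, since Kif9 and Kif17 differ in where it lies.
Kif9 (chr9:110476858-110476987, plus strand): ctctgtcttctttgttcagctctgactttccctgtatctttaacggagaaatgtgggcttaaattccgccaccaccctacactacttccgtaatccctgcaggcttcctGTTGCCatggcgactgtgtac
Kif17 (chr4:138262151-138262280, plus strand): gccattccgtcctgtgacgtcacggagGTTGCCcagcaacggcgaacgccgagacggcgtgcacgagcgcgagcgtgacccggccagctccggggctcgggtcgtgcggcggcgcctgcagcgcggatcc
Kif9 holds it just after the start and Kif17 holds it upstream. Kif7 and Kif27, which were also called, do not hold it in this window.

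Of the 13 dynein and dynactin genes, 1 was called higher and 1 lower. Among the 5 dynein 1 genes, only the intermediate chain Dync1i1 was called. It stood at 1229 and 1287 in controls and at 1881 and 1664 in cKO (log2 change 0.49, SE 0.064, adjusted p 8.15e-05). Its paralog Dync1i2 was at 4727 and 4638 against 4929 and 4977 (0.08, SE 0.041, adjusted p 0.145). The motor subunit Dync1h1 had overlapping groups, at 18600.1 and 19616 in controls and 19301 and 20724 in cKO (0.07, SE 0.045, adjusted p 0.276). The dynein 2 motor Dync2h1 stood at 5482 and 5708 against 4895 and 5802 (-0.07, SE 0.064), and neither dynein 2 gene was called. Of the 6 dynactin genes only Dctn5, a subunit of the pointed-end complex, was called, at 1147 and 1227 against 1007 and 1053 (-0.20, SE 0.061, adjusted p 0.0185). Dctn5 lost its call in DESeq2, with quantile scaling and with no filter. The large subunit Dctn1 stood at 3874 and 3949 against 3895 and 3804 (-0.02, SE 0.043). Kif26b, an unconventional kinesin, was the remaining gene called higher, at 39.5 and 29.3 against 51.4 and 58.0 (0.67, SE 0.24, adjusted p 0.0398), and it lost its call in DESeq2 and without control library 2 or either cKO library.

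Of 53 other genes of the motor pathway (C-type kinesins, dynein light chains, adaptors, dynactin-bound proteins and plus-end proteins), 48 could be tested at P16, and 10 were lower and 9 higher. The dynein adaptor Bicdl1 fell by 0.91 on the log2 scale, Gpsm2, which anchors dynein for spindle orientation, fell by 0.81, and Spdl1, which recruits dynein to kinetochores, fell by 0.44. The kinesin and dynein adaptor Mapk8ip3 fell by 0.38. Trak1, the mitochondrial adaptor of kinesin-1, rose by 0.39, and the kinetochore kinesin Cenpe rose by 0.20 while most mitotic Kif genes were lower. Pafah1b1 (Lis1), a regulator of dynein, rose by 0.12. The share called, 39.6%, is near the 38.6% of all genes.

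At P14 none of the 53 genes was called between cKO and control, and of 17270 genes tested 1 was (0.00579%). DESeq2 and edgeR on the recovered reads also called none of the 53. At an unadjusted p under 0.05 there were 2, Kif4 at a log2 change of -0.17 and Kif23 at -0.13, against 2.37% of all genes. Klc3 was at 111 and 159 in controls and 139 and 143 in cKO, and Kif17 was at 102 and 105 against 126 and 117. Kif5a stood at 304 and 370 against 337 and 309, and in none of these genes did both cKO libraries lie below both controls. Kif23 was at 2338 and 2304 against 2161 and 2077, a smaller gap than at P16.

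Whether the cKO effect itself differed by stage was tested with an interaction term in a fit of the 8 first-kit libraries. For 7 of the 53 genes the cKO effect was lower at P16 than at P14, and for none was it higher, against 4.49% and 2.9% of 18581 genes, or 7.39% either way. The 7 were Klc3 (difference of log2 changes -1.20, SE 0.27, adjusted p 0.0309), Kif17 (-0.88, adjusted p 0.0326), Kif5a (-0.66, adjusted p 0.0449), Kif23 (-0.54, SE 0.093, adjusted p 0.0120), Kif18a (-0.53, adjusted p 0.0187), Kif7 (-0.53, adjusted p 0.0176) and Kif27 (-0.45, adjusted p 0.0308). An unadjusted p under 0.05 was found for 20 of the 53, against 24.8% of all genes. The count rests on single libraries. It was 3 without control P14 library 1, 1 without control P14 library 2, 12 without cKO P14 library 1, 1 without control P16 library 1, 0 without control P16 library 2, 3 without cKO P16 library 1 and 4 without cKO P16 library 2. Without the trend in limma it was 0.

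From P14 to P16, 5 of the 9 ciliary and axonemal kinesins and both dynein 2 genes rose in control testes, and Kif17, Kif7, Kif3a and Kif3c did not pass the test. In a fit on log2 CPM of the recovered reads, 13 of all 53 genes rose and 1 fell, against 13.3% and 6.67% of 18581 genes (20% either way). Kif9 rose from 15.9 and 18.0 CPM to 40.3 and 40.8, a log2 change of 1.26 (SE 0.12, adjusted p 2.68e-04). Kif19a, which limits the length of motile cilia, rose by 1.10, Kif6, a motor of motile cilia, by 0.84 and Kif27 by 0.61. Dync2h1 rose from 135 and 147 CPM to 211 and 220.1 (0.61, SE 0.097, adjusted p 0.00206), and its light intermediate chain Dync2li1 rose by 0.29. The others were Kif24 (0.45), the dynactin subunit Dctn2 (0.42), Kif3b (0.33), Dync1i2 (0.29), Dync1h1 (0.25), Kif2a (0.24) and Klc2 (0.18). Kif5c fell by 0.33. The count of rises was 8 without control P16 library 1. The fall of Kif5c was not called without control P14 library 2, without either P16 control or without the trend, and 2 genes were called lower without either cKO P14 library. Over the same interval 9 of 10 pachytene markers rose, with sums of 830 to 930.04 CPM at P14 and 1936 to 1954 at P16. The part of pachytene cells in these gains was not tested.

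In cKO, 13 genes rose and 14 fell over the same interval, against 16% and 13.8% of all genes (29.8% either way). Without cKO P16 library 1 the count of falls was 9. Kif9 rose by 0.97, Kif19a by 1.26, Kif6 by 0.84 and Dync2h1 by 0.52, so most of the ciliary motors that rose in controls also rose in cKO. Of all the genes that rose in controls, Kif27, Kif24 and Klc2 were not called higher in cKO, and only Kif27 is in the ciliary group. Kif27 was at 28.7 and 33.0 CPM at P14 and 34.3 in both cKO libraries at P16 (0.16, adjusted p 0.138), where the controls had reached 46.8 and 46.2. Kif24 was at 44.1 and 48.2 and then 46.9 and 51.3 (0.09, adjusted p 0.383). Klc2 was at 118.6 and 115.5 CPM and then 119.4 and 115.3. For Kif27 the stage difference passed the interaction test, and for Kif24 and Klc2 it did not. The falls included Klc3 (-1.20), Kif17 (-0.66), Kif7 (-0.64), Kif5a (-0.59), Kif23 (-0.58) and Kif18a (-0.52), none of which changed past the test in controls. Over the interval 8 of 10 spermatogonial markers were called lower in cKO (median log2 change -0.41) and 3 of 10 in controls (median -0.12), and their part in these falls was not tested. Both contrasts share the 8-library fit with the interaction, and they are given side by side for that reason.

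**Figure D3:**
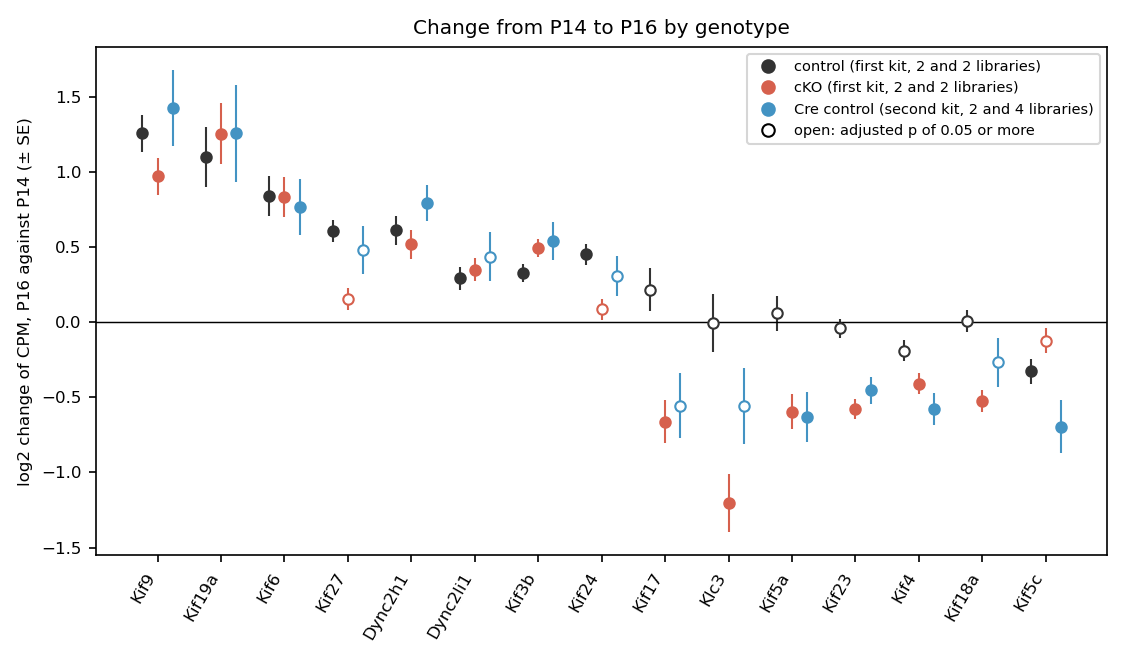
Log2 change of CPM from P14 to P16 with its standard error for 15 motor genes, in control and cKO (first kit) and Cre control (second kit). Filled points have an adjusted p under 0.05. Kif9, Kif19a, Kif6 and Dync2h1 rose in all 3 genotypes, while Kif5a, Kif23 and Kif4 fell in cKO and Cre control and were not called in control.

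The Cre controls gave the same interval in libraries that share nothing with the first kit. There 6 genes rose and 6 fell, against 9.06% and 2.75% of 18819 genes (11.8% either way). All 13 genes that rose in controls were also higher at P16 in Cre controls, and 6 of them were called: Kif9 (1.43), Kif19a (1.26), Dync2h1 (0.80), Kif6 (0.77), Kif3b (0.54) and Dctn2 (0.40). How often other genes that rose in controls did the same was not counted, so this agreement is not shown to be particular to motor genes. The falls were Kif5c (-0.69), Kif5a (-0.63), Kif4 (-0.58), Kif23 (-0.45), Kif21b (-0.43) and Kif11 (-0.40). Spermatogonial markers moved with these falls, with 4 of 10 called lower, a median log2 change of -0.48 and sums of 1104 to 1142 CPM at P14 and 724.5 to 931 at P16. In the first-kit controls the sums were 900.3 to 919 and then 804 to 810.1. The part of spermatogonia in the falls was not tested. The P16 Cre controls came from 2 sequencing runs, and the run that also held the P14 libraries has 1 of the P16 libraries. That library is part of the fit, so the sign of the 12 called genes, which was the same with it alone, is not a separate check. The 6 rises were 1 without Cre control P14 library 1, 3 without P14 library 2, 3 without P16 library 1, 3 without P16 library 2 and 2 without P16 library 3. The 6 falls were 0 without P14 library 1, 3 without P16 library 1, 2 without P16 library 2 and 2 without P16 library 3. Without the trend there was 1 rise and 1 fall.

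Kif23 shows how the control types compared. In CPM of the first kit the controls were at 97.3 and 95.3 at P14 and at 90.03 and 97.5 at P16, and cKO went from 89.5 and 86.0 to 55.5 and 62.3. In the second kit the Cre controls were at 109.5 and 100.2 at P14 and at 75.4, 74.9, 78.8 and 77.8 at P16, and cKO library 3 was at 107 and 74.4. Kif23 was thus lower at P16 in cKO of both kits and in Cre controls, and was level in the controls of the first kit. Kif5a behaved alike, at 22.4 and 16.4 CPM in Cre controls at P14 and 11.1 to 13.5 at P16. Whether the change over time differs between control and Cre control was not tested, because control type, kit and sequencing run cannot be told apart.

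Against Cre controls at P16, 1 of the 53 genes was called higher in cKO and 2 lower, against 4.3% and 4.77% of 19200 genes (9.07% either way). Here 2 of the 3 cKO libraries differ from every Cre control in kit and sequencing run, and with the kit as a covariate none was called. Kif11 stood at 1562, 1293, 1405 and 1505 in Cre controls and at 2349.6, 2428 and 1759 in cKO (log2 change 0.58, adjusted p 0.0417), and cKO library 3, of the same kit as the Cre controls, was the lowest of the cKO libraries. Klc2 stood at 3665, 4350.2, 4413 and 3659 against 2536, 2430.01 and 3003 (-0.60, SE 0.11, adjusted p 0.0379). Dctn3 stood at 1116, 1042, 1198 and 1043 against 819, 891 and 852 (-0.36, adjusted p 0.0444). The groups did not overlap in these 3 genes, nor in genes that were not called, such as Kif7, Klc1 and Kif5b. The share of such genes over all genes was not counted. Without any 1 library other than cKO library 3 no gene was called, and without cKO library 3, when the comparison is wholly between kits, 13 were called higher and 16 lower. At P14 none was called against Cre controls, as was true of all 18196 genes, and none had an unadjusted p under 0.05, where 3.87% of all genes did. In simulated data of this P14 design 0% of changes of 1 on the log2 scale were recovered, so the absence of calls says little.

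Within the second kit, cKO library 3 could be set beside the 4 Cre controls at P16 as values with no test. Only Cre control library 1 was sequenced in the same run as cKO library 3. Libraries 2 to 4 came from another run, so for those the run and the genotype cannot be told apart. Of the 20 genes called lower in the first kit, 15 were below the Cre control mean, while 79.7% of all genes called lower in the first kit were below the mean. Of the 7 called higher, 6 were above the mean, against 83.8% of all genes called higher. Among the light chains, Klc1, Klc2 and Klc4 lay below every Cre control. Klc1 was at 769 against 870.02 to 978 in Cre controls, Klc2 at 3003 against 3659 to 4413, and Klc4 at 725 against 776 to 957. Klc3, at 92.6, lay within the 79.3 to 139 of the Cre controls, and above the 79.3 of library 1, from the same run. Kif27 was at 533 against 594 to 896, and Kif7 at 379.8 against 410.4 to 583, each below every Cre control. Kif5a was at 204 against 218 to 266.

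Several mitotic kinesins stood the other way in the second kit. Kif4 was at 827 in cKO library 3 against 685 to 776 in Cre controls, and Kif22 was at 1057 against 934 to 1005, both above every Cre control. Kif18a was at 577 within a range of 451 to 608. That is above the Cre control mean of 511 but below the 608 of library 1, from the same run. Kif23 was at 1431 against 1473 to 1568, a log2 difference of -0.08. The spermatogonial marker sum was 858 CPM in cKO library 3 and 724.5 to 931 in the Cre controls, so cKO lay within the Cre controls. The leptotene and zygotene sum was 1189 CPM in cKO library 3, just below the 1195 to 1719.7 of the Cre controls. The part of these cells was not tested in this kit either. A test of whether the cKO effect differed between kits called none of the 53 genes and 0.0452% of 19932 genes, with 7 of the 53 at an unadjusted p under 0.05, against 10% of all genes. The lowest p-values were those of Kif23 (second kit minus first 0.62, SE 0.13, adjusted p 0.140), Kif4 (0.61, adjusted p 0.209) and Kif18a (0.78, adjusted p 0.239). The difference of greatest size among the 7 was that of the light chain Klc3 (0.90, SE 0.40, adjusted p 0.494). With 1 cKO library in the second kit, this test has little to rest on, and the kit, the sequencing run and the control type cannot be told apart.

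**Figure D4:**
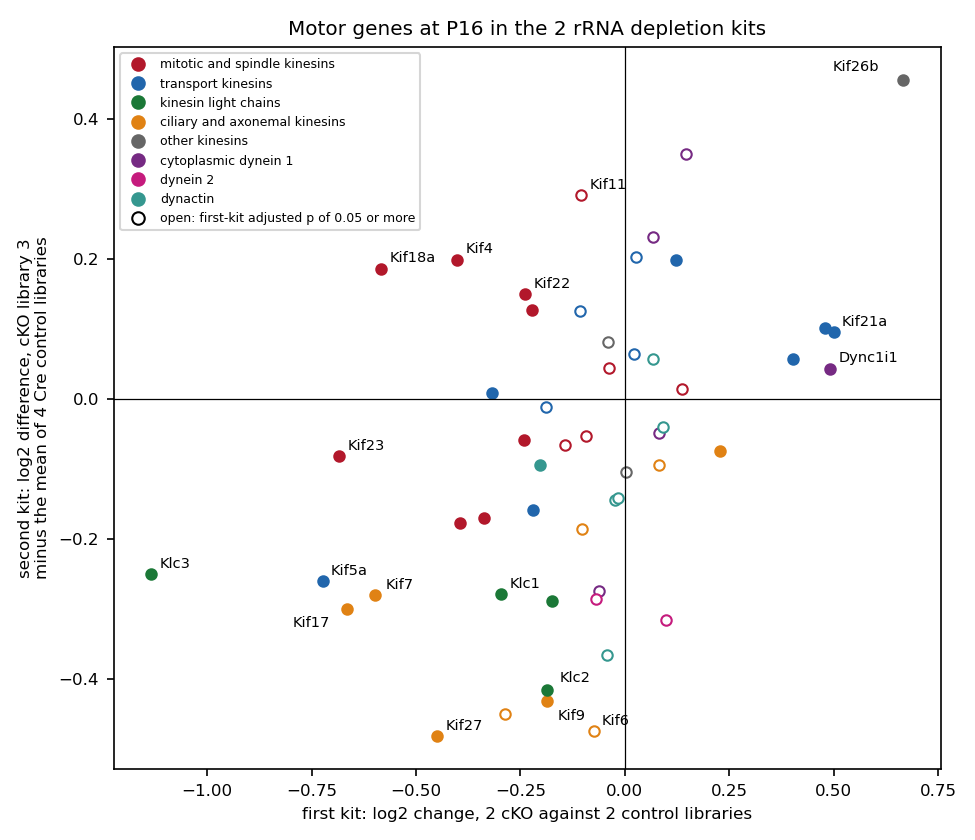
Log2 change of each motor gene at P16 in the first kit (horizontal, 2 cKO against 2 control libraries) and log2 difference between cKO library 3 and the mean of 4 Cre controls in the second kit (vertical, no test). Filled points were called in the first kit. Of the Cre controls, only library 1 was sequenced in the run of cKO library 3. Light chains and most called ciliary kinesins lie at the lower left, whereas Kif18a, Kif4 and Kif22 lie at the upper left.

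A single cKO effect over both control types at P16, with the kit as a covariate, was fitted to all 9 P16 libraries and shares the first-kit libraries with the comparison above. It called 6 of the 53 genes lower and none higher, against 7.49% and 6.07% of 19932 genes (13.6% either way). These were Kif5a (-0.51, SE 0.13, adjusted p 0.0246), Kif27 (-0.46, adjusted p 0.0203), Kif7 (-0.45, adjusted p 0.0390), Kif23 (-0.41, adjusted p 0.0327), Klc1 (-0.28, adjusted p 0.0239) and Klc2 (-0.28, adjusted p 0.0467). The count was 0 without either first-kit control, 0 without cKO library 1 or 2, 3 without Cre control library 3 and 0 without the trend. Among the other pathway genes 7 were lower and 3 higher, with Bicdl1 at -0.65, Gpsm2 at -0.60 and Spdl1 at -0.37.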

How the data were processed

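RNA was measured in 16 testis libraries. Per the submitters' processing notes the tools were Trim Galore, STAR, HTSeq and DESeq2 and the build was GRCm39 (mm39), and per the file headers the reads were trimmed first mates. Versions, strand setting and annotation release were not given in the sources used here. The authors deposited 4 tables of normalized counts, a signal equal to the reads of a gene divided by a size factor of the library. In all 20 columns 100% of values were whole multiples of 1 read within 0.01 read, so reads were recovered. cKO libraries 1 and 2 appear in both tables of a stage with identical reads and were counted once in fits over tables. Rows that name no gene (summary rows) were left out. GENCODE M21 (GRCm38) named 52081 of 55414 IDs, and no coordinates of genes were taken for the counts.

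Within a table, limma 3.58.1 in R 4.3.3 (trend) was fitted to log2(value + 1) of genes that reached 10 in no fewer than 2 libraries, a scale that understates changes of low genes. Fits across tables took the recovered reads as log2 CPM, scaled by TMM with a prior count of 1. The alternatives tried included a minimum of 50, no filter, pseudocounts of 0.1 and 10, TMM, quantile scaling, no trend, edgeR 4.0.16, DESeq2 1.42.0, prior count 5, DESeq2 size factors, a replicate block, the kit as covariate and leaving out each library. On simulated data for the P16 table, 82.5% of genes changed by 1 and 66.0% of those changed by 0.5 on the log2 scale were recovered over 17685 genes. For the P14 table with controls 69.0% and 39.8% were recovered over 17034 genes, for the P16 table with Cre controls 18.0% and 0% over 18734 genes, and for the P14 table with Cre controls 0% and 0% over 17669 genes.

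Described in full were, per role, up to 3 called genes in each direction with the largest change at P16, and 21 genes with a known part in germ cells. The genes, lists and tests were chosen with earlier results of these data known.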

Additional observations from a re-analysis of the deposited data

Results flagged for a closer look

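Among the 4 Cre control libraries at P16, 1 library stood apart from the other 3 for 4 of the 53 genes, by Dixon's criterion, which chance meets in about 1 of 20 groups. The 4 genes are not far from that rate, and the share over all genes was not counted. Dync1h1 was at 17133 in library 3 and at 15750.1 to 15944 in the others. Kif18b was at 847 in library 3 against 752 to 758, and Kif22 was at 1005 in library 3 against 934 to 940.1. Kif13b was at 2193 in library 1 against 2412 to 2451. Library 1 was sequenced in another run than libraries 2 to 4.

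For 7 genes the cKO effect differed between P16 and P14 in the interaction test. The differences of log2 changes were -1.20 for Klc3, -0.88 for Kif17, -0.66 for Kif5a, -0.54 for Kif23, -0.53 for Kif18a, -0.53 for Kif7 and -0.45 for Kif27. All 7 were lower in cKO at P16.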

How the results depend on the processing

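Over 1362 values of single genes under the alternatives, 1081 kept direction and side of the threshold, 281 no longer passed it and 0 reversed. Counts of called genes that moved by over 1.5 times follow, higher before lower, and the cause was not tested. At P16 against control (7 and 20), no trend gave 1 and 7, and leaving out a library gave 4 to 9 and 14 to 22. The fit over 8 libraries, added after seeing the data, lost 6 calls. Against Cre control at P16 (1 and 2), pseudocount 10 gave 2 higher, TMM 2 and 1, quantile scaling 3 higher, no filter 0 and 1, a minimum of 50 2 higher, edgeR 1 lower, DESeq2 5 and 6, and no trend, the replicate block and the kit covariate each 0 and 0, while leaving out a library gave 0 to 13 and 0 to 16. Against Cre control at P14 (0 and 0), the replicate block gave 9 and 10 and leaving out a library 0 to 8 and 0 to 10, the highest without cKO library 3. Over both control types (0 and 6), no trend gave 1 and 0, and leaving out a library 0 to 0 and 0 to 8. For the stage difference (0 and 7), prior count 5, DESeq2 size factors and edgeR each gave 1 higher, the replicate block 3 higher, no filter 4 lower, no trend 0 lower, and leaving out a library 0 to 4 and 0 to 12. For control from P14 to P16 (13 and 1), no filter and no trend gave 0 lower, the replicate block 2 lower, and leaving out a library 8 to 14 and 0 to 2. For cKO (13 and 14), leaving out a library gave 10 to 15 and 9 to 16. For Cre control (6 and 6), no trend gave 1 and 1, the replicate block 2 lower, and leaving out a library 1 to 8 and 0 to 9. The labels do not say that a shared number pairs libraries. The deviations of same-numbered libraries correlated at 0.203 at P14 and 0.0798 at P16, and 2 pairs a stage cannot settle whether they are paired, so the block is given as an alternative only. The kit-by-genotype term and the values within 1 run were also added after seeing the data. Genes with few reads, such as Kif26b, limit what can be called.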
